A study of Mus musculus with 6 samples.

Results

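Cells that carried RNA of both Tbx5 and Foxf1, a pairing used to recognise mesoderm of the posterior second heart field, were picked out of mouse embryos at embryonic day E10.5. A cell barcode was taken when 2500 or more genes were detected in it and no more than 10% of its molecules were mitochondrial, with at least 2 molecules of Tbx5 and at least 2 of Foxf1. It also had fewer than 2 molecules of Wt1 (epicardium), fewer than 2 of Tbx4, fewer than 5 of Tnnt2 (cardiac muscle) and fewer than 3 of Epcam (epithelium). Molecules were counted as unique molecular identifiers (UMIs), which mark each captured RNA so that amplified copies count once. The rule found 1082 cells among 35962 passing barcodes, a share of 3.01% (95% exact interval 2.83 to 3.19), out of 53362 barcodes in all. They are called Tbx5+Foxf1+ cells below.

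The study profiled single cells of the microdissected cardiogenic region of wild-type C57BL/6 embryos with droplet-based 3′ RNA sequencing, and its labels name non-cardiac mesoderm, ectoderm and endoderm among the cells caught. The mothers had been pretreated with vehicle and were normoglycemic (3 samples), or with streptozotocin (STZ), a toxin of the insulin-producing beta cell, and were hyperglycemic (3 samples); the fathers were normoglycemic in both groups. The deposited matrix pools 6 libraries, numbered 1 to 6 by a suffix on each barcode, and no file used here ties a suffix to a sample. The maternal groups were therefore not compared, each library is given on its own, and the intervals below cover error of counting alone and leave out variation among embryos.

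The second heart field is a reservoir of mesodermal progenitors behind the early heart tube. Its anterior part feeds the outflow tract and right ventricle, and its posterior part feeds the atria, the dorsal mesenchymal protrusion of the atrial septum and the venous pole, and borders the mesenchyme of the lung bud. Posterior cells lie next to the foregut endoderm, which secretes Sonic hedgehog. Tbx5 and hedgehog-activated Gli factors are known to act together on genes such as Osr1 and Foxf1 there. Retinoic acid, made by Aldh1a2, sets the posterior limit of the field and activates 3′ Hox genes.

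The libraries held 7533 to 10000 barcodes and 200462921 to 248426458 UMIs each, and 4903 to 7136 barcodes per library passed. Libraries 1 to 6 contributed 46, 42, 149, 268, 338 and 239 Tbx5+Foxf1+ cells, or 0.714% (0.523 to 0.951), 0.700% (0.505 to 0.945), 3.04% (2.58 to 3.56), 4.72% (4.18 to 5.30), 4.74% (4.26 to 5.26) and 4.12% (3.62 to 4.66) of passing barcodes. Libraries 1 and 2 thus held the fewest, with intervals that do not overlap those of the other 4. The cells' median UMI counts were 38737, 39956, 28976, 28146, 28194 and 30723, highest in libraries 1 and 2. Over all passing barcodes the medians were 32587 and 33898 in these 2 libraries and 30533 to 35634 in the others. Mitochondrial genes took a median of 2.46% of UMIs in the Tbx5+Foxf1+ cells and 2.39% in the other barcodes. Of the 49236 barcode sequences, 2777 occurred in more than 1 library; 60 Tbx5+Foxf1+ cells carried such a sequence, and 11 of them had it in a passing barcode of another library.

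The low share in libraries 1 and 2 was not seen in an anterior set. Isl1+Fgf10+ cells, with at least 2 UMIs of each gene, none of Tbx5 and the same limits on Wt1, Tbx4, Tnnt2 and Epcam, numbered 1080 and made up 2.63% to 3.46% of passing barcodes in every library. Tbx4+Foxf1+ cells, the closest of the sets compared, followed the other pattern: they numbered 426 and took 0.155%, 0.167%, 2.18%, 1.32%, 1.57% and 1.93% in libraries 1 to 6. Tbx5+Tnnt2+ cells, a set of Tbx5-bearing cardiac muscle (1848 cells), ranged from 4.44% to 6.43%, and Foxf1-bearing cells without Tbx5 (3251 cells) from 8.0% to 11.3%. Among all barcodes with at least 2 UMIs of Foxf1, 6.88%, 6.23%, 17.6%, 25%, 19.8% and 22.9% were Tbx5+Foxf1+ cells in libraries 1 to 6, so libraries 1 and 2 were lowest on this denominator too.

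**Figure D1:**
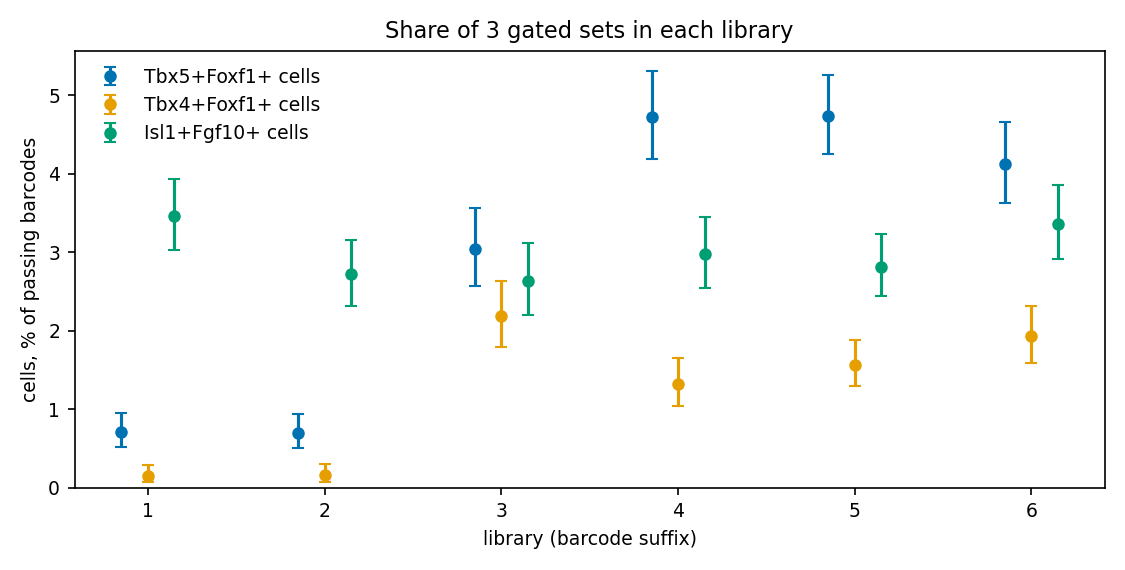
Share of passing barcodes (y axis, %) in each of the 6 libraries (x axis) for Tbx5+Foxf1+, Tbx4+Foxf1+ and Isl1+Fgf10+ cells; points are shares and bars 95% exact binomial intervals. The Tbx5+Foxf1+ share is 0.714% and 0.700% in libraries 1 and 2 and 3.04% to 4.74% in the other libraries, while the Isl1+Fgf10+ share stays between 2.63% and 3.46%.

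The gate itself set the levels of Tbx5 and Foxf1. The cells held a median of 4 UMIs of Tbx5 (range 2 to 26) and 12 of Foxf1 (range 2 to 45). Cells just inside, with exactly 2 UMIs of Tbx5 (295 cells), had Osr1 at 176 CPM (UMIs of the gene per 1000000 UMIs of the set) and the chemokine Cxcl13 at 212 CPM. Cells just outside, with 1 UMI of Tbx5 (426 cells), had Osr1 at 142 and Cxcl13 at 132 CPM. The 61 cells kept out with 1 UMI of Foxf1 stood further off, with Osr1 at 57.0 CPM against 116 CPM in the 35 cells with 2. Of the 1867 barcodes with both genes at 2 or more UMIs, 442 exceeded the limit on Tbx4, 199 that on Wt1, 158 that on Tnnt2 and 96 that on Epcam, with some barcodes over several limits.

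Gene levels were compared with those of the 34880 other passing barcodes. A gene was counted when it reached 10 CPM in either set, and called higher or lower at a 2-fold difference or more. By this rule 263 of 9212 genes counted (2.85%) were higher in Tbx5+Foxf1+ cells and 475 (5.16%) lower, and the median ratio over all genes counted was 1.07. The cells were selected from the same profiles, so these ratios describe them and carry no test. Divided by that median, Gata5, Hoxa3, Wnt11 and Vcan, called higher below, came to 1.97, 1.92, 1.92 and 1.90.

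Markers of the posterior field were checked against the label first. Of 12 genes on that list, 11 were counted, 6 of them were higher, none was lower, and the median ratio was 2.57. Osr1, a zinc-finger factor of the atrial septum progenitors, stood at 134, 72.4, 260, 211, 213 and 211 CPM in libraries 1 to 6. All 6 values lay above the range of the other barcodes, 8.69 to 25.8 CPM, and libraries 1 and 2 were the lowest. Over all libraries Osr1 was 12.7-fold higher (12.4 to 13.1), at 208 against 16.3 CPM. Aldh1a2, the enzyme that makes retinoic acid in mesoderm, measured 96.5, 104, 114, 134, 134 and 139 CPM against 10.2 to 25.4 CPM in the others, an 8.0-fold difference (7.75 to 8.26). Its library values were close together and did not overlap with those of the other barcodes.

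The remaining higher genes of the list were Wnt2, Nr2f2, Foxf2 and Gli1. Wnt2, a ligand needed in both the posterior pole and the lung bud, was at 151, 28.7, 91.8, 99.2, 116 and 96.0 CPM, 3.57-fold above the others (3.44 to 3.69) in total. Library 2 fell inside the range of the other barcodes (24.9 to 33.1 CPM), so the difference was seen in 5 of 6 libraries. Nr2f2, which specifies atrial and venous identity, was 2.57-fold higher, at 467 against 182 CPM. Foxf2, the paralog of Foxf1, was 4.18-fold higher, at 12.7 against 3.03 CPM. Gli1 is described with the hedgehog genes.

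Isl1, the factor that defines the second heart field as a whole, did not set these cells apart. It stood at 194, 127, 52.0, 69.9, 66.0 and 60.2 CPM, against 58.9 to 70.1 CPM in the other barcodes, with a ratio of 1.12 (1.08 to 1.17) over all libraries. Libraries 1 and 2 were above that range, library 3 was below it, and libraries 4 to 6 lay within it. Gata4 (73.1 against 57.1 CPM), Gata6 (89.3 against 60.0), Hoxb1 (12.2 against 7.10) and Nr2f1 (161 against 119) also stayed under 2-fold. Against the other barcodes the label was thus matched by 6 of the 11 counted markers, while 5 did not set the cells apart. The list does not separate these cells from the Tbx4+Foxf1+ cells: all 12 genes were counted there and 0 were higher (median ratio 0.944). Isl1 was carried by a part of the cells only, as described further on.

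To compare shares of positive cells at equal depth, each cell was thinned to 10000 UMIs, which left out 9 Tbx5+Foxf1+ cells and kept 1073. Osr1 was then detected in 78.0% of them (93.9% before thinning) and in 9.86% of the other barcodes (15.6%). In 568 cells with Sox10, a neural crest factor, where Osr1 should be missing, it was found in 0.704% (3.14%). The crest cells had the higher median depth, 40913 UMIs against 29605. Aldh1a2 gave 61.2% (83.2% before thinning) against 8.03% of the other barcodes and 1.41% of the Sox10 cells. Isl1 gave 30.2%, close to the 28.8% of the other barcodes, and 8.98% of the Sox10 cells. The shares of Osr1 and Aldh1a2 were far above those in the crest cells. A share in the crest cells can hold free RNA as well as their own RNA, and free RNA was not measured.

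**Figure D2:**
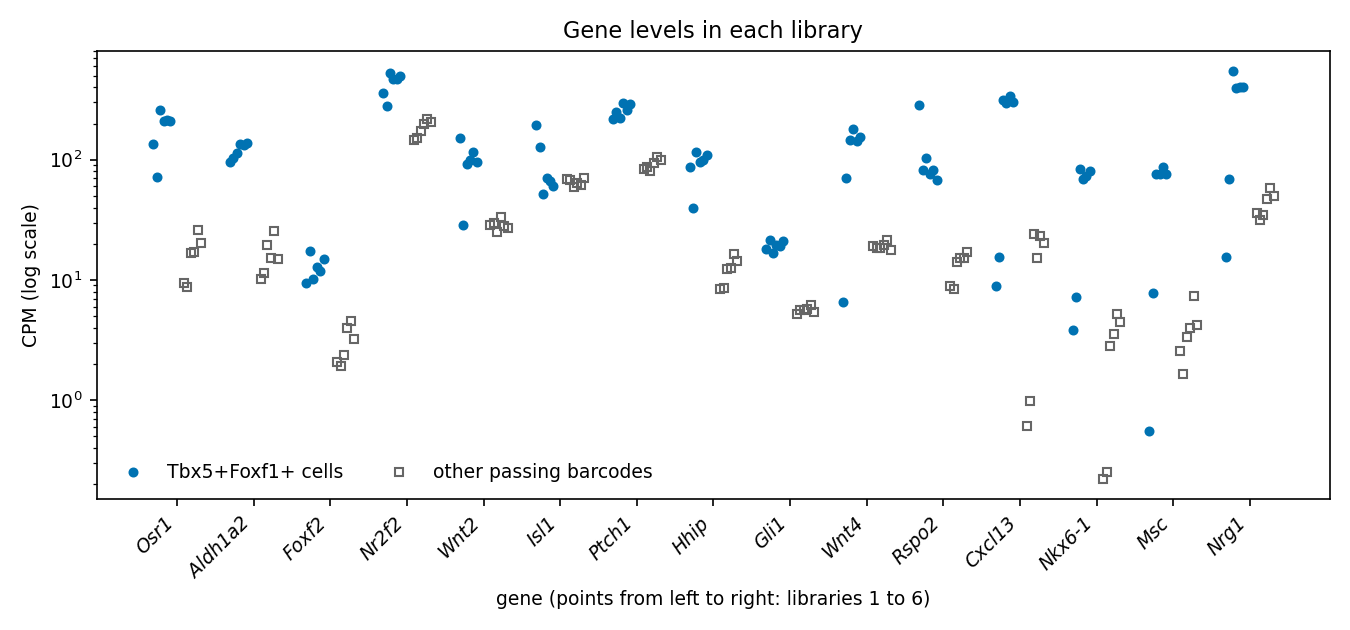
Level of 15 genes (y axis, CPM of summed UMIs, log scale) in Tbx5+Foxf1+ cells (filled circles) and the other passing barcodes (open squares); the 6 points of each kind are libraries 1 to 6 from left to right. Osr1, Aldh1a2, Ptch1 and Hhip lie above the other barcodes in every library, while Cxcl13, Nkx6-1, Msc and Nrg1 are far lower in libraries 1 and 2 than in the other 4.

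Some genes that receive or report hedgehog signals were higher in these cells. Of 11 on the list, all counted, 4 were higher, 7 passed the limit in neither direction and none was lower, with a median ratio of 1.41. Ptch1, the receptor that hedgehog signalling itself induces, stood at 218, 247, 222, 297, 257 and 289 CPM, all above the 80.2 to 104.97 CPM of the other barcodes, and was 2.90-fold higher (2.84 to 2.96). Hhip, an induced antagonist that binds the ligand, was at 86.6, 39.5, 117, 95.7, 100 and 109 CPM. Its lowest library exceeded the highest value of the other barcodes, 16.4 CPM, and the overall difference was 8.26-fold (7.96 to 8.57). Gli1, a transcription factor and target of the pathway, was 3.43-fold higher (19.4 against 5.64 CPM), with a narrow range of 16.7 to 21.5 CPM over the libraries.

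Among the 7 genes under the limit, Smo, the signal transducer, was at 99.8 against 70.7 CPM, Gli2 at 60.1 against 38.2 and Gli3 at 142 against 103. The co-receptors Boc (11.3 against 16.7 CPM), Gas1 (84.3 against 125) and Cdon (12.3 against 24.1) were below the other barcodes by less than 2-fold. Ligand transcripts were almost missing: Shh was at 0.142 CPM against 7.89 in the other barcodes, Ihh at 0.0285 and Dhh at 0.114 CPM. The cells therefore held RNA of the receptors and induced genes but hardly any of the ligands.

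Promoters are shown for 2 of these genes and for Fendrr, a long noncoding RNA transcribed beside Foxf1, a gate gene, in the opposite direction. The 3 were higher in these cells than in the other barcodes, and the known factors of the region bind DNA. Against Tbx4+Foxf1+ cells none of the 3 was 2-fold higher, as given below. Fendrr measured 59.0, 50.3, 112, 91.5, 84.0 and 93.1 CPM, against 2.54 to 8.91 CPM in the other barcodes, and was 17.3-fold higher (16.5 to 18.0). The sequences are the 250 bases before the RefSeq start on GRCm38.p6, 5′ to 3′ on the gene's strand: chr13:63565736-63565985 (minus) for Ptch1, chr8:80058009-80058258 (minus) for Hhip and chr8:121083111-121083360 (minus) for Fendrr. Capitals mark a forkhead motif.
Ptch1: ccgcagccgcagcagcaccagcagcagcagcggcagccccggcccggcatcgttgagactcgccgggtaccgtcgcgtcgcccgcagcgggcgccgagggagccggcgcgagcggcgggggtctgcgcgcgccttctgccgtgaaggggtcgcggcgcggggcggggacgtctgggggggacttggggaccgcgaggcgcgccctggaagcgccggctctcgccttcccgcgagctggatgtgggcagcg
Hhip: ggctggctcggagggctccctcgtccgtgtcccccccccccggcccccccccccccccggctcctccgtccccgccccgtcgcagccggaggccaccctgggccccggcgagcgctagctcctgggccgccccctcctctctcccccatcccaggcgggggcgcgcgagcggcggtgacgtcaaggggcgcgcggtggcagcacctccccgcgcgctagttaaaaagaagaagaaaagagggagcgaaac
Fendrr: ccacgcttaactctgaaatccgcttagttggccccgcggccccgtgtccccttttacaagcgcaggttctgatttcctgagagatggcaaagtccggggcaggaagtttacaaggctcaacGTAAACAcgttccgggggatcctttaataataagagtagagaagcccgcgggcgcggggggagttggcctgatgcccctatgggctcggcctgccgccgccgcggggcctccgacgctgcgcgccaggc
The motifs searched, on both strands, were the Gli motif GACCACCCA, the T-box motif AGGTGTGA and the forkhead motif TGTTTAC. Fendrr held the forkhead motif on the opposite strand, 129 to 123 bases before its start, and the Ptch1 and Hhip windows held none of the 3, so no matches overlapped.

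Over all RefSeq promoters of this length (27025 genes), 0.255% held the Gli motif, 1.30% the T-box motif and 3.54% the forkhead motif. Of the 263 genes called higher, 181 had a promoter in the table, and 0, 0 and 4 of them held the motifs. The 4 with a forkhead motif, 2.21% of the 181, were Fendrr, Cald1, Gm30382 and Mgll. Among all 7370 counted genes with a promoter the shares were 0.258%, 0.719% and 2.63%. A match describes letters in a window and is not a binding site, and a window without a match says nothing about the factor.

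Retinoic acid genes and Hox genes were the next groups. Of 10 retinoic acid genes counted, 3 were higher and 2 lower (median ratio 1.37). Besides Aldh1a2 these were Stra6, which imports retinol, at 22.9 against 5.80 CPM (3.95-fold), and the receptor gene Rarb, itself induced by retinoic acid, at 122 against 47.1 CPM (2.59-fold). Rarb ranged from 51.8 CPM in library 1 to 173 CPM in library 3, above the other barcodes' range of 32.6 to 60.3 in 5 libraries and inside it in library 1. Crabp1, a retinoic acid binding protein of neural crest, was 5.54-fold lower at 59.1 against 328 CPM, and Rarg was lower at 5.80 against 14.2 CPM.

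Of 8 Hox genes counted, 4 were higher, all of paralog groups 3 to 5, and none was lower. Hoxa5 was at 13.8, 22.7, 41.0, 41.7, 65.0 and 53.1 CPM and was 5.04-fold higher in total, with library 1 inside the other barcodes' range of 4.2 to 18.9. Hoxa4 was 5.29-fold higher (46.8 against 8.85 CPM), Hoxb4 2.84-fold (76.6 against 27.0 CPM) and Hoxa3 2.05-fold (21.9 against 10.6 CPM). Hoxa3 dropped to 1.91-fold without library 1. No UMI was found in these cells for 14 Hox genes of groups 6 to 13, which allows each at most 0.0854 CPM. Hoxb1 stayed under 2-fold, as given above.

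Several Wnt ligands and secreted modulators were higher. On the Wnt list 6 of 17 genes counted were higher and 3 lower (median ratio 1.32). Wnt4 stood at 6.62, 70.6, 145, 179, 143 and 155 CPM, against 17.7 to 21.5 CPM in the other barcodes, so it was lower than them in library 1 and higher in the other 5, with 7.54-fold (7.31 to 7.77) overall. Rspo1, which amplifies Wnt signals through Lgr receptors, was at 38.6, 58.6, 150, 141, 146 and 159 CPM and 8.92-fold higher (8.64 to 9.21). Its relative Rspo2 had its peak in library 1: 283, 81.4, 103, 76.3, 82.1 and 68.1 CPM, 6.96-fold higher overall. The 2 R-spondins therefore had opposite extremes in library 1.

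Sfrp2, a Wnt-binding decoy, was 4.23-fold higher at 116 against 27.5 CPM, with 30.3 and 42.5 CPM in libraries 1 and 2 and 104.6 to 193 CPM in the others. Wnt11 was 2.05-fold higher at 11.7 against 5.70 CPM, and under 2-fold without library 3 (1.95) or library 6 (1.97). The lower genes were Wnt6, an epithelial ligand, Dkk1 and Frzb. Axin2 and Lef1, which respond to Wnt signals in many tissues, were at 13.9 against 11.7 and at 45.1 against 49.7 CPM. Ligands and modulators differed, then, while these 2 response genes were near the common level.

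BMP genes differed in both directions, and the FGF and Notch genes called were lower. Over all genes counted 2.85% were higher and 5.16% lower. The lack of a higher gene among 9 FGF and 5 Notch genes is therefore close to the common share. On the BMP list 2 of 13 genes counted were higher, Bmp5 (43.7 against 19.9 CPM) and the BMP-binding Bmper (33.2 against 13.7), and 3 were lower, Bmp2, Msx1 and Msx2. Bmp2 was at 0.681 without blood and muscle among the other barcodes, and Msx1 (17.7 against 36.8 CPM) lost the call without library 2 (ratio 0.500). Bmp4 was at 86.9 against 50.8 CPM. None of 9 FGF genes was higher, and 5 were lower: Fgf8 (0.683 against 18.9 CPM) and the FGF-induced Spry1, Spry2, Etv4 (3.59 against 12.0) and Etv5 (4.87 against 14.6). Spry2 passed 0.5 without library 5 (0.514) or library 6 (0.524). Notch1 and its target Hey1 were lower among 5 Notch genes counted, with none higher.

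Cardiac transcription factors differed in both directions. Of 26 counted, 7 were higher and 8 lower (median ratio 1.23). Osr1, Nr2f2, Gata5 (37.3 against 17.7 CPM), Tshz3 (113 against 31.6), Foxp1 (613 against 252) and the Pbx partner of Hox proteins Pbx3 (472 against 214) were among the higher genes. Gata5 reached 88.8 CPM in library 1 and 26.9 to 37.1 CPM elsewhere.

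The lower genes were Nkx2-5 (8.76 against 25.2 CPM), Hand1 (10.1 against 29.4), Hand2 (26.1 against 61.7), Hopx (1.08 against 22.7), Mef2c, Tbx1, Tbx20 and Shox2. Hand2, a bHLH factor of outflow, limb and septal progenitors, ran from 99.3 and 69.4 CPM in libraries 1 and 2 to 17.2 to 24.0 CPM in the other 4, and its ratio was 0.672 when each library had the same weight. Nkx2-5 did likewise, with 35.3 and 28.7 CPM against 3.96 to 7.43 CPM, and Hand1 moved to 0.610. The other barcodes include blood and cardiac muscle. With these left out, Nkx2-5 was 1.51-fold higher in Tbx5+Foxf1+ cells, and Shox2 (0.685), Tbx20 (0.708) and Mef2c (0.688) no longer passed the limit, nor did Pbx3 (1.90), Ackr3 (1.93) and Hoxa3 (1.61) among the higher genes.

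Differentiated heart muscle was nearly missing, as the gate on Tnnt2 favours. All 11 sarcomere genes counted were lower, with a median ratio of 0.011, for example Myh6 at 1.59 against 144 CPM and Actc1 at 12.4 against 1340 CPM. All 4 smooth muscle genes counted were lower too. These ratios depend on the muscle cells among the other barcodes: without blood and muscle cells there, Myh6 was at 0.875, Myl7 at 1.01, Myl4 at 1.37 and Actn2 at 1.38, while Actc1 (0.495), Myl2 (0.498) and Myh7 (0.370) kept the call. Of the smooth muscle genes, Acta2 (0.334) and Tagln (0.390) kept it, Cnn1 was at 0.905, and Myocd turned to 2.67-fold higher. Of 11 anterior second heart field genes counted, 6 were lower and none higher (median ratio 0.468). They included Fgf8, the pharyngeal factor Eya1 (20.5 against 69.8 CPM), Tlx1, Mef2c and Tbx1 (12.6 against 28.1 CPM). Tbx1 was at 0.554 without library 5, and Mef2c at 0.513 without library 6.

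Most marker lists of other cell types were low. All 5 epithelial genes counted were lower and Foxa2 had 0 UMIs. In neural crest mesenchyme 7 of 8 were lower, and among neuron genes Neurog1 had 0 UMIs. Endothelial genes were lower in 5 of 6 cases, with a summed level of 42.7 CPM (22.8 to 72.2 over libraries) against 149 CPM (87.4 to 191). Blood genes summed to 819 CPM against 31378, with 2398 CPM in library 5 and 91.5 to 226 CPM in the others. The blood result also turned when blood and muscle were left out of the other barcodes alone: Hba-x was then 7.97-fold, Hbb-bh1 7.81-fold, Hba-a1 7.23-fold and Hbb-y 7.13-fold higher in Tbx5+Foxf1+ cells. The latter kept their 3 cells with over 1% globin UMIs, so these ratios do not compare like with like. Library 5 had Hba-x at 727 CPM in the Tbx5+Foxf1+ cells, and the other libraries had 13.8 to 64.3 CPM. By the signs checked, 22 cells (2.03%) carried another lineage. Of these, 13 had at least 2 UMIs of endothelial Cdh5, 5 of Sox10, 1 of neuronal Elavl3, and 3 had over 1% globin UMIs. Other markers were not used for this, and endothelial Cldn5 and Kdr remained in some cells outside the 22, as given below. The branchiomeric muscle list summed to 204 against 104 CPM. By library its sum was 98.7, 77.8, 230.4, 212, 218 and 213 CPM, against 83.0 to 128 CPM in the other barcodes, so it lay above them in libraries 3 to 6 only. Of its 5 genes counted 3 were higher, among them Msc and Tcf21, and Tlx1 and Ebf2 (10.1 against 33.7 CPM) were lower. Cushion genes summed to 575 against 560 CPM, with Vcan higher and Twist1 (67.7 against 176) and Hapln1 lower. A doublet score marked 14 cells (1.29%), and without them none of 178 named genes lost its call. A cell was marked only above the score that 75% of simulated doublets did not pass, so doublets can remain among the cells kept.

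The foregut and lung mesenchyme list had 3 of 7 genes higher and none lower. They were Wnt2, Nkx6-1 and Tcf21, a bHLH factor of visceral and pharyngeal mesenchyme, at 73.5 against 34.2 CPM and between 48.5 and 88.1 CPM in every library. Barx1, a factor of stomach mesenchyme, was at 45.9 against 66.2 CPM. It was uneven among the cells, at 80.7 CPM in those with at least 2 UMIs of Isl1 and 22.5 in those with none. Split in the same way by Aldh1a2 it was at 28.9 and 108 CPM, and by Cxcl13 at 24.8 and 67.8 CPM. Guidance genes had 3 of 12 higher and 1 lower. Slit3, a secreted repellent, was at 715, 422, 857, 687, 569 and 679 CPM and 3.40-fold higher (3.36 to 3.45), and the others were Plxna2 (99.9 against 40.4) and Ackr3 (26.5 against 12.3). Of 12 matrix genes counted, Vcan was higher (431 against 213 CPM), at 1.91-fold without library 3. Col4a2 (24.5 against 60.2 CPM) and Hapln1 (44.5 against 111) were lower.

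The genes with the largest ratios outside these lists were Ppfia2 (67.4 against 2.99 CPM, 22.5-fold), Cxcl13 (285 against 13.8 CPM, 20.6-fold) and the protease gene Adamts20 (88.6 against 4.58 CPM, 19.3-fold), followed by Fendrr. Next were the noncoding D030025E07Rik (324 against 25.4 CPM), Tafa1 (154 against 12.1) and Mgp, an inhibitor of calcification that binds BMPs (64.6 against 6.16 CPM). Sparcl1, Itga8 (127 against 18.6 CPM), a partner of nephronectin, Pde5a and Foxp2 (842 against 201 CPM) were among the rest of the leading 20. Among listed genes, Nkx6-1, known from pancreas and motor neurons, had the largest ratio, 25.3-fold (24.0 to 26.7). It was not particular to these cells. In libraries 3 to 6 it stood at 63.5 to 123 CPM in Tbx4+Foxf1+ cells and at 69.7 to 83.5 CPM here. At equal depth 52.7% of the Tbx4+Foxf1+ cells and 43.6% of the Tbx5+Foxf1+ cells had a UMI of it. The muscle repressor Msc was 18.5-fold higher and the ErbB ligand Nrg1 8.93-fold, both in 5 of 6 libraries.

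Glucose handling and cell division were also measured, since the study concerns maternal diabetes. Of 12 glucose genes counted none was higher and 4 were lower: the transporters Slc2a1 (46.2 against 122 CPM) and Slc2a3 (4.33 against 33.0) and the glycolytic Hk1 (6.77 against 24.4) and Pfkp (2.50 against 17.3). Slc2a1 was even across libraries, from 42.9 to 49.1 CPM. Without blood and muscle among the other barcodes, Slc2a1 was at 0.676, Hk1 at 0.661 and Pfkp at 0.575, and only Slc2a3 kept its call. None of the 12 S-phase and 12 G2/M genes passed 2-fold, with median ratios of 1.07 and 1.10, so cycling genes were at the common level.

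Tbx4+Foxf1+ cells, marked by a T-box gene known from lung and tracheal mesenchyme, had the fewest called genes of the 3 sets compared. Their gate leaves Tbx5 open, and most carried it: 93.7% had a Tbx5 UMI, and 78.6% at equal depth against 74.9% of the Tbx5+Foxf1+ cells. The 2 sets are kept apart by Tbx4. Of 8886 genes counted, 57 (0.641%) were higher in Tbx5+Foxf1+ cells and 55 (0.619%) lower, with a median ratio of 0.985. Wnt4 led, at 144 against 21.4 CPM, 6.73-fold higher (6.00 to 7.56) and in 5 of 6 libraries. The calcium channel gene Ryr3 (67.4 against 17.7 CPM), Smoc1 (3.06-fold), Ppfia2 (2.97-fold), Arg1 (2.70-fold), Wnt5a (51.3 against 21.5) and Adamts20 (2.36-fold) were also higher. Lower were Fgf10, the ligand that drives lung branching (15.3 against 57.8 CPM, 3.79-fold), Tbx2 (27.0 against 74.3), Tbx3 (29.6 against 69), Epha3 and the Gata cofactor Zfpm2.

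None of the 12 posterior field genes and none of the 11 hedgehog genes differed 2-fold between these sets: Osr1 was at 208 and 196 CPM, Ptch1 at 267 and 265, Gli1 at 19.4 and 18.5, and Fendrr at 88.8 and 87.8. Hhip was at 99.9 against 179 and Cxcl13 at 285 against 518 CPM. In libraries 1 and 2 the Tbx4+Foxf1+ set held 10 cells each, so values for those libraries rest on few molecules.

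Against the anterior Isl1+Fgf10+ cells, 239 of 9083 genes counted (2.63%) were higher and 328 (3.61%) lower, with a median ratio of 0.999. Cxcl13 (128-fold), Nkx6-1 (70.4-fold), Ppfia2 (67.2-fold), Wnt4 (44.9-fold) and Wnt2 (102 against 2.32 CPM, 43.9-fold) led the higher genes. Foxd1, a stromal forkhead factor, was at 66.0 against 3.10 CPM, and Osr1 at 208 against 19.1. The lower genes were led by Lhx2, of pharyngeal muscle progenitors (1.31 against 104 CPM), Tlx1 and Runx1. Of 11 posterior markers counted, 7 were higher and 1 lower, and of 11 hedgehog genes 2 were higher and 1 lower, with Hhip 3.26-fold higher and Ptch1 at 267 against 151 CPM. Isl1 and Fgf10 differ here by the choice of cells.

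Against Tbx5+Tnnt2+ muscle cells, 1236 of 9411 genes counted (13.13%) were higher and 984 (10.46%) lower. The median gene was itself 1.21-fold higher, a shift of 0.28 on the log2 scale, and with ratios divided by that median the counts were 750 and 1294. Tbx5+Foxf1+ cells held Cxcl13 (234-fold), Msc (118-fold), Ppfia2 (107-fold) and Nrg1 (42.2-fold) at far higher levels, and muscle genes such as Nppa and Myl2 were the lowest. Of 11 posterior markers counted, 7 were higher and Gata4 was lower (73.1 against 211 CPM), and Wnt2 was at 102 against 182 CPM. Hedgehog genes were higher in 8 of 11 cases, with Ptch1 at 267 against 37.6 and Gli1 at 19.4 against 1.44 CPM.

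**Figure D3:**
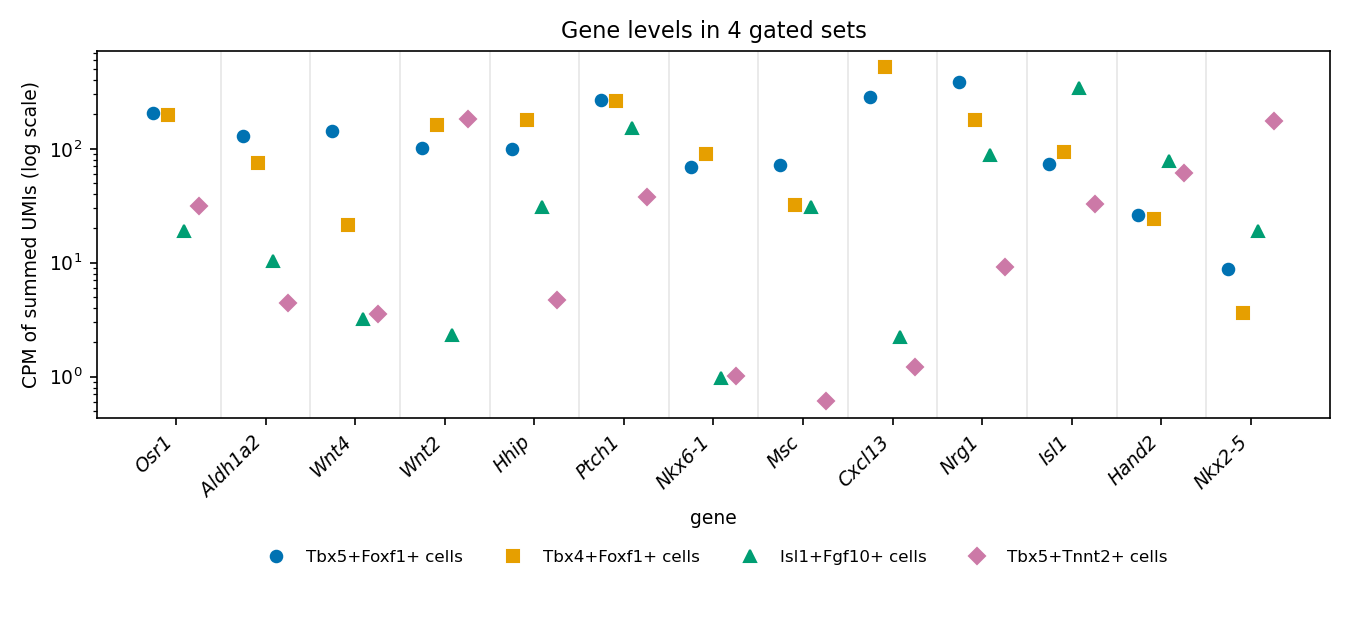
Level of 13 genes (y axis, CPM of summed UMIs, log scale) in Tbx5+Foxf1+, Tbx4+Foxf1+, Isl1+Fgf10+ and Tbx5+Tnnt2+ cells, 1 point per set. Osr1 and Ptch1 are level in the first 2 sets (208 and 196, 267 and 265 CPM), Wnt4 is highest in the Tbx5+Foxf1+ cells (144 CPM), and Isl1 is highest in the Isl1+Fgf10+ cells (344 CPM), which were chosen by it.

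Libraries 1 and 2 differed from the others in what their few Tbx5+Foxf1+ cells expressed. Of 3554 genes at 50 CPM or more in these cells, 37 had a highest library at least 5 times the lowest. In 29 of the 37, libraries 1 and 2 were the lowest pair, and in 3 they were the highest pair. The limit of 50 CPM applied to the summed cells, few of them from libraries 1 and 2. Genes high in these libraries alone were thus mostly left out, such as Hand2 (99.3 and 69.4 against 17.2 to 24.0 CPM). The counts 29 and 3 therefore cannot be set against each other. The 29 include the Y-linked Eif2s3y and Uty, missing in library 1 only, and globin genes raised in library 5. In the other barcodes 6 genes varied as much. Cxcl13, a chemokine that attracts B cells in lymphoid tissue, was at 8.82 (5.04 to 14.3) and 15.6 (10.2 to 22.8) CPM in libraries 1 and 2, and at 314, 299, 337 and 303 CPM in libraries 3 to 6. Nkx6-1 (3.86 and 7.18 against 69.7 to 83.5 CPM), Msc (0.551 and 7.78 against 75.5 to 86.5 CPM) and Nrg1 (15.4 and 68.8 against 397 to 546 CPM) had the same order. In all 4 genes no value of libraries 1 and 2 reached those of the other libraries.

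Cxcl13 was also lowest in libraries 1 and 2 in other cells. It was at 0.615 and 0.984 CPM in their other passing barcodes against 15.4 to 23.9 CPM elsewhere, and in Wt1-bearing cells at 2.97 and 2.35 against 43.7 to 90.8 CPM. The Tbx4+Foxf1+ cells of libraries 1 and 2 had no Cxcl13 UMI among 10 cells each, while those of libraries 3 to 6 had 528 to 568 CPM. The gap was narrower in cells with Foxf1 and without Tbx5, at 2.25 and 3.58 CPM in libraries 1 and 2 against 6.97, 12.6, 31.0 and 17.2 CPM in the others. Nkx6-1 was likewise at 0.222 and 0.252 CPM in the other passing barcodes of libraries 1 and 2 against 2.80 to 5.16 CPM elsewhere. In Wt1-bearing cells it was at 0.495 and 0.349 against 5.27 to 8.77 CPM. Msc there was at 0.0991 and 1.22 against 3.23 to 9.40 CPM, and Nrg1 at 10.3 and 7.94 against 18.3 to 46.7 CPM. Nrg1 in the other passing barcodes was at 36.4 and 31.4 against 34.5 to 58.3 CPM. A further difference put library 3 with libraries 1 and 2: the histone gene Hist1h1b was at 920, 1458 and 731 CPM there and at 127 to 176 CPM in libraries 4 to 6 (570 to 718 and 133 to 160 CPM in the other barcodes). Library 1 also lacked the Y-linked Eif2s3y, which the others had at 55.1 to 64.7 CPM. Without libraries 1 and 2, 4 of the 178 named calls against the other barcodes were lost and 0 changed direction.

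The libraries also differed in the shares of Tbx5+Foxf1+ cells with Cxcl13 and with Isl1. Cells with at least 2 UMIs of Cxcl13 made up 6.52% (1.37 to 17.9), 11.9% (3.98 to 25.6), 65.1%, 58.2%, 65.4% and 63.2% in libraries 1 to 6, or 633 cells and 58.5% in all. Cells with at least 2 UMIs of Isl1 made up 87.0% (73.7 to 95.1), 59.5%, 19.5%, 35.4%, 33.7% and 33.9%, or 384 cells and 35.5% in all. At these limits 97 cells had both and 162 had neither. Hand2 at 2 or more UMIs followed Isl1, with 67.4% and 54.8% in libraries 1 and 2 and 9.40% to 17.2% in the others, and a UMI of Nkx2-5 was found in 50% and 26.2% against 5.86% to 10.4%. The Tbx4+Foxf1+ cells had the same order, with Hand2 at 188 and 139 against 13.5 to 24.0 CPM and Isl1 at 235 and 144 against 77.0 to 102 CPM, from 10 cells each in libraries 1 and 2. At equal depth of 10000 UMIs, 54.5% of the cells had Cxcl13, against 3.36% of the other barcodes and 0.880% of the Sox10 cells.

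**Figure D4:**
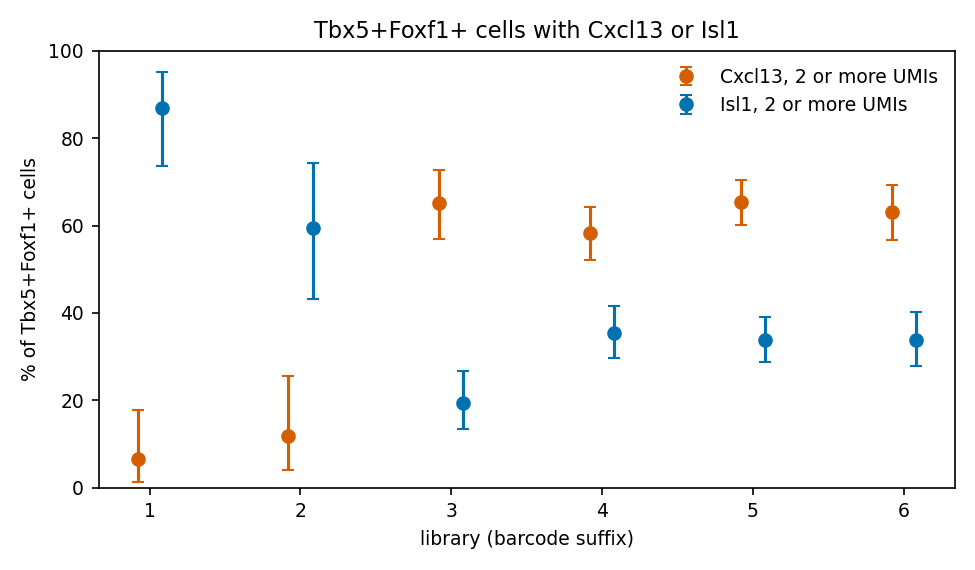
Share of Tbx5+Foxf1+ cells (y axis, %) with at least 2 UMIs of Cxcl13 or of Isl1 in each library (x axis); points are shares and bars 95% exact binomial intervals. Libraries 1 and 2 are high in Isl1 (87.0% and 59.5%) and low in Cxcl13 (6.52% and 11.9%), and the order is reversed in libraries 3 to 6.

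Splitting the cells by Cxcl13, a choice made after its library values were seen, set the 633 cells with at least 2 UMIs against the 355 with none. Of 8977 genes counted, 155 (1.73%) were higher and 228 (2.54%) lower in the Cxcl13 cells. Higher were Nrg1 (570 against 79.6 CPM, 7.16-fold, 6.71 to 7.65), Msc (109 against 15.9), Wnt4 (212 against 37.3), Sfrp2 (171 against 37.1), Nkx6-1 (94.8 against 25.7) and the matrix gene Smoc1 (98.2 against 12.1). Rspo1 (2.90-fold), Smoc2 (3.21-fold), Rarb (2.42-fold) and Hoxb1 (2.67-fold) went with them. All of these but Nrg1 and Smoc1 were higher in each of the 5 libraries that had at least 5 cells on both sides, and these 2 in 4 of 5. Globin genes ranked above them, with Hba-x at 16-fold, but the globin ratios fell to between 1.13 and 1.39 without the 22 cells of other lineages.

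Several listed genes, cardiac factors among them, were higher in the Cxcl13-negative cells, while others were lower. Isl1 was at 146 against 26.8 CPM in the Cxcl13 cells, Gata4 at 142 against 30.2, Bmp4 at 160 against 41.8 and Rspo2 at 179 against 33.8. Hand2 was 9.49-fold lower in the Cxcl13 cells (6.41 against 60.9 CPM), and Nkx2-5 (0.404 against 23.9), Hand1 (1.92 against 25.6) and Shox2 (1.36 against 17.2) were close to missing. Of the other posterior markers, Gata6 was lower in the Cxcl13 cells (40.7 against 168 CPM), and Nr2f1 was higher (199.5 against 94.4), as was Hoxb1. On the anterior list Fgf10 was higher in the Cxcl13 cells (19.4 against 9.58 CPM), while Mef2c (20.7 against 80.0) and Six2 (7.17 against 15.3) were lower. Under 2-fold, Tbx1 (ratio 0.616) and Eya1 (0.769) were lower and Sema3c (1.48) was higher. The cardiac factors Tshz3 (1.77-fold) and Pbx3 (1.57-fold) were higher in the Cxcl13 cells. Osr1 (1.35-fold), Aldh1a2 (1.78-fold) and the hedgehog genes Ptch1 (1.24-fold) and Hhip (1.22-fold) were higher in the Cxcl13 cells by less than 2-fold. Wnt2 was 1.69-fold lower in the Cxcl13 cells (81.8 against 138 CPM) and Nr2f2 1.06-fold lower. Some markers of other cell types were also lower in the Cxcl13 cells. They were muscle Tnni1 (8.33 against 96.7 CPM) and Myl4 (10.8 against 33.1), endothelial Kdr (6.82 against 26.1) and Krt8 (14.5 against 40.7). Muscle Actc1 (11.3 against 14.2 CPM) and Myl7 (36.7 against 58.6) and Krt18 (73.5 against 74.9) differed by less than 2-fold. The median depth was 27972 UMIs in the Cxcl13 cells and 32973 in the others. Without libraries 1 and 2 the ratios were 6.30 for Nrg1, 5.48 for Msc, 5.40 for Wnt4, 2.96 for Nkx6-1, 0.184 for Isl1 and 0.117 for Hand2, so these differences were seen within libraries 3 to 6 alone. Whether the cells fall into separate kinds or along a gradient was not tested.

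The split by Isl1 is given beside it. The 384 cells with at least 2 UMIs and the 611 with none differed in 179 genes higher (2.0%) and 201 lower (2.24%) of 8968. Xist ranked first (57.1 against 2.42 CPM), but it was higher in 1 of 5 libraries and at 0.0864 CPM in the Isl1 cells without libraries 1 and 2. Rspo2 (188 against 21.4 CPM), Hand2 (52.2 against 7.21), Bmp4 (165 against 25.6), Nkx2-5 (19.4 against 1.16), Shox2 (13.5 against 1.71), Gata4 (123 against 25.5) and the Notch ligand Jag1 (72.7 against 15.4) were higher with Isl1. Wnt2 (167 against 46.1 CPM) and the BMP-induced Id1 (297 against 130) were too. Fgf10 (23.6 against 6.60 CPM), Mef2c (66.6 against 22.5) and Six2 (15.2 against 7.15) of the anterior list were also higher with Isl1. Sema3c of that list was lower (27.6 against 36.8 CPM). Some markers of other cell types were higher with Isl1 as well: the muscle gene Tnni1 (77.7 against 12.2 CPM), endothelial Kdr (2.89-fold) and Krt8 (3.30-fold). Muscle Actc1 (11.0 against 13.1 CPM) and endothelial Tek (7.19 against 11.1) were not. Nrg1 was 13-fold lower (52.4 against 682 CPM), Wnt4 10.8-fold (23.0 against 247) and Msc 5.83-fold. Of the posterior markers, Hoxb1 (5.15 against 17.2 CPM) and Nr2f1 (93.4 against 214) were lower with Isl1, and Gata6 was higher (154 against 36.7). Aldh1a2 (93.9 against 158 CPM) and Osr1 (177 against 237) were lower by less than 2-fold. Without libraries 1 and 2, Rspo2 was 9.12-fold, Hand2 6.90-fold, Bmp4 6.78-fold and Nkx2-5 12.4-fold higher, and Nrg1 11.1-fold and Wnt4 10.1-fold lower. Globin genes were lower with Isl1 too, Hba-x by 17.6-fold, and by between 1.34-fold and 1.51-fold without the 22 cells of other lineages. Both splits divide the same 1082 cells, so they are not separate evidence. Isl1 cells were the deeper ones, with median counts of 35074 and 26919 UMIs.

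**Figure D5:**
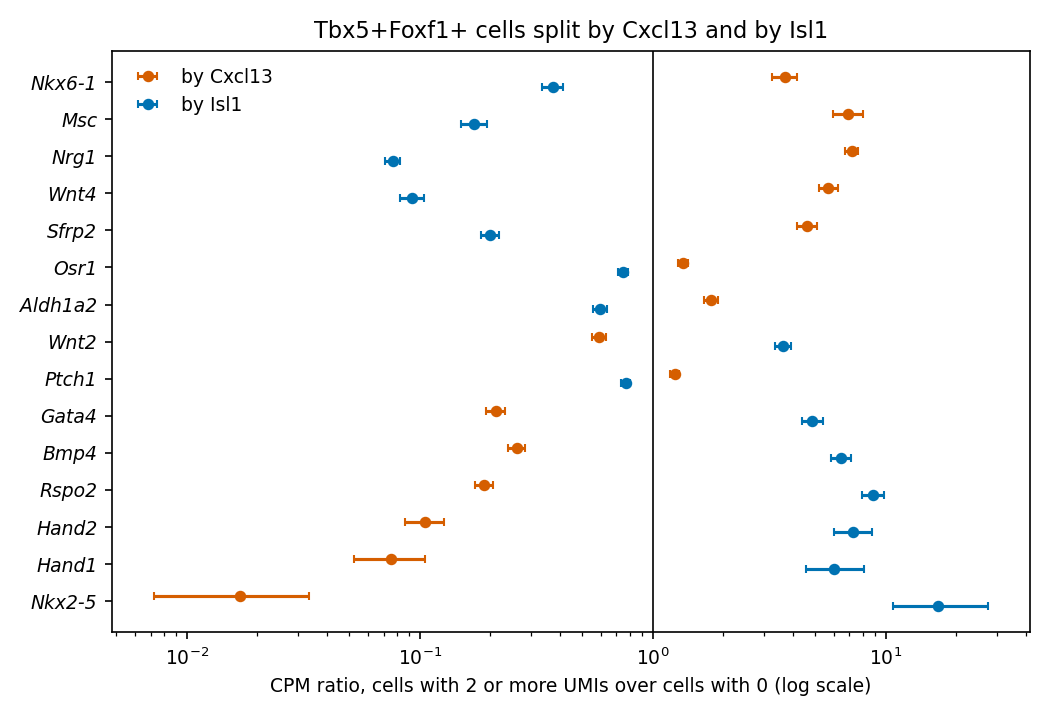
Ratio of CPM between Tbx5+Foxf1+ cells with at least 2 UMIs and those with 0 UMIs of Cxcl13 or of Isl1 (x axis, log scale) for 15 genes (y axis); bars are 95% exact intervals for counting error. Nkx6-1, Msc, Nrg1, Wnt4 and Sfrp2 are above 1 for Cxcl13 and below 1 for Isl1, Hand2 and Nkx2-5 have the opposite order, and Osr1, Aldh1a2 and Ptch1 lie within 2-fold of 1 in both.

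The cells were also split by other genes of the field. The 417 cells with at least 2 UMIs of Wnt2 and the 474 with none differed in 92 genes higher (1.03%) and 80 lower (0.897%). Globin genes took the first 4 places, led by Hba-x at 15.2-fold, but all 5 globin ratios lay between 0.647 and 0.889 without the 22 cells of other lineages. After them came the sodium pump subunit Atp1b1 (62.3 against 5.25 CPM). Kitl (4.85-fold), Rspo2 (4.8-fold) and the neuregulin receptor Erbb4 (4.51-fold) were higher as well, while Barx1, Smoc1 and Cxcl12 (44.8 against 116 CPM) were lower. Atp1b1, Kitl, Rspo2 and Erbb4 were higher with Wnt2 and Cxcl12 lower in 6 of 6 libraries, while Smoc1 was lower in 5 and Barx1 in 4 of the 6. Hand1 was found at 2 or more UMIs in 49 cells, 22 of them in libraries 1 and 2, and 265 genes were higher (2.92%) and 263 lower (2.9%) in these than in the 1013 without it. They had Nkx2-5 at 63.2 against 4.77 CPM, Hand2 at 154 against 18.0, Mab21l2 at 62.7 against 2.22 and the Wnt antagonist Dkk1 at 44.4 against 1.91 CPM, and had little Nkx6-1 (3.66 against 73.4) or Hoxa5 (2.61 against 52.5). Of the 1013 cells without Hand1, libraries 1 and 2 gave 33 and 28. In all Tbx5+Foxf1+ cells of these libraries Nkx6-1 was at 3.86 and 7.18 CPM and Hand2 at 99.3 and 69.4 CPM. The Hand1 split was not repeated without them, so its summed values also hold differences between libraries.

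Cells without the common markers were few. Osr1 was missing in 66 cells and present at 2 or more UMIs in 949, and 158 genes were higher (1.74%) and 245 lower (2.69%) with it. Osr1 cells had more Pde1a (53.5 against 4.70 CPM), Wnt4 (156 against 37.2) and Tcf21 (78.4 against 26.8). The cells without Osr1 held the endothelial Cldn5 (53.6 against 0.516 CPM) and Cdh5 (37.6 against 1.74) and more Hand1 (83.7 against 5.07). Globin genes were higher with Osr1, Hbb-bh1 by 9.14-fold, but all 5 globin ratios lay between 0.683 and 1.06 without the 22 cells of other lineages. Pde1a (10.8-fold), Wnt4 (3.66-fold) and Tcf21 (2.73-fold) were still higher without those cells, and Cldn5 was still lower (0.0661 against 29.2 CPM). Aldh1a2 was missing in 182 cells and present at 2 or more UMIs in 730, with 53 genes higher (0.587%) and 207 lower (2.29%) in the latter. Globin genes led there too, with Hbb-bh1 at 5.98-fold, and lay between 0.907 and 0.995 without the 22 cells. Ryr3 (85.5 against 18.9 CPM), Arg1 (84.3 against 27.2) and Wnt4 (173 against 45) were higher with Aldh1a2, while Gata4 (45.2 against 151), Hand1 (4.60 against 34.5) and Tbx20 (19.1 against 87.0) were lower. The endothelial Kdr was also lower with Aldh1a2 (5.72 against 46.8 CPM, and 5.29 against 32.3 CPM without the 22 cells).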

How the data were processed

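Single-cell 3′ RNA libraries were made with the 10x Genomics kit, version 3, per the labels' protocols. Sample descriptions name a chromatin assay, but titles, kit and library source all name RNA, so the matrix was read as RNA. The authors deposited 1 matrix of raw UMI counts (whole numbers, 32285 genes), and per the file headers Cell Ranger 5.0.0 made it. The submitters' processing notes also name CASAVA 1.8, Seurat 4 and mm10; annotation and cell calling: not given in the sources used here. No per-sample column was left unmapped (0).

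Of 53362 barcodes, 17029 were removed for under 2500 genes and 371 for over 10% mitochondrial UMIs. Counts were summed per set, without correction between libraries, and scaled to CPM. Intervals are 95% exact Poisson (CPM), Clopper-Pearson (shares) and exact conditional binomial (ratios); a count of 0 allows 3 counts. Since no file used here ties its libraries to samples, the pooled matrix was treated as 1 sample and no test was made. Named genes were all listed genes and Hox genes, the 20 highest and 15 lowest unlisted genes against the other barcodes at 50 CPM or more and with the same direction in 6 libraries, the 10 highest and 10 lowest per set, and the 10 highest and 5 lowest per split; others named were singled out from these tables. Some genes stay in the counts but are not reported by name here. The cells, gene lists and rules were chosen with earlier results of these data known. Doublets were scored per library (2 simulated per cell, 2000 genes, 30 components), which marked 353 passing barcodes (0.982%); they were kept, and left out as an alternative. The summing and interval code was tested on simulated data. Promoters came from RefSeq (GRCm38.p6). Alternatives covered filters, gate limits, thinning, weights, scaling, doublets, shared barcodes and each library left out. Python 3.11.15, numpy 2.4.6, scipy 1.17.1 and pandas 2.3.3 were used.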

Additional observations from a re-analysis of the deposited data

How the results depend on the processing

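No paired analysis was possible because no file used here ties the 6 libraries to the maternal samples or their replicate numbers; values within each library are given with the results. The share of Tbx5+Foxf1+ cells, 3.01%, was 2.48% with 1000 genes and 20% mitochondrial UMIs, 2.13% with the gate at 3 UMIs, 4.52% at 1 UMI, 1.78% after thinning, 2.58% to 3.51% with each library left out, and 4.23% without libraries 1 and 2. With genes counted from 1 CPM, those higher and lower numbered 554 and 1465 against the other barcodes, 240 and 187 against Tbx4+Foxf1+ cells, 643 and 907 against Isl1+Fgf10+ cells, and 2445 and 1734 against Tbx5+Tnnt2+ cells. From 50 CPM they numbered 115 and 111, 16 and 23, 81 and 104, and 477 and 442. Median-scaled ratios gave 750 higher against Tbx5+Tnnt2+ cells.

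Of 178 named genes called against the other barcodes, none changed direction under the other alternatives except with blood and muscle left out of those barcodes (chosen after seeing the data, as were leaving out libraries 1 and 2 together and the Cxcl13 split) or with libraries weighted equally, where Xist was at 1.32. Without blood and muscle, 19 changed direction: Erbb4 1.33, Atp1b1 2.75, Tnni3 2.70, Csrp3 2.71, Hbb-bs 2.84, Hbb-bh1 7.81, Hbb-y 7.13, Myl3 1.46, Myl7 1.01, Hba-x 7.97, Hba-a1 7.23, Hba-a2 5.38, Myocd 2.67, Myl4 1.37, Actn2 1.38, Sh3bgr 1.77, Nkx2-5 1.51, Alas2 1.68 and Smpx 8.24. The Tbx5+Foxf1+ cells kept their 3 cells with over 1% globin UMIs here. Their globin level was highest in library 5, with Hbb-y at 1115 CPM against 40.8 to 107 CPM in the others. Calls fell between the limits for 30 genes there, 19 with the gate at 1 UMI, 16 with equal weights, 7 after thinning, 5 with median scaling, 4 without libraries 1 and 2, and 0 to 4 elsewhere. Depth limits levels under 10 CPM, and the number of cells limits libraries 1 and 2, with 46 and 42.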
